A study of Homo sapiens with 2 samples.

Results

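The YB-1 PAR-CLIP clusters that lie in the 45S ribosomal RNA repeat units of hg38 are described here. They were chosen by place, as the clusters on the plus strand of chr21:8200000-8460000, and not by a cutoff on any measured value. The place was set with earlier results of these data known. These clusters number 109 of 3393 clusters in all, with 58 of the 1382 clusters of Rep.A and 51 of the 2011 clusters of Rep.B. No cluster lay on the minus strand of the same window. YB-1, a cold shock domain protein that binds mRNA, was crosslinked to RNA in wild-type HEK293T cells, an established human embryonic kidney line, and 1 condition was measured in 2 libraries, Rep.A and Rep.B. The cells took up 4-thiouridine (100 µM, 16 h) and received 0.15 J/cm2 of UV light of 365 nm, after which the NP40 lysate was digested with RNase T1 and YB-1 was recovered with an antibody. The mapped reads of Rep.B were 2.63 times those of Rep.A. No control library or knockout sample was used here, so every value below describes crosslinked RNA recovered with YB-1 and cannot be set against a background of the same assay.

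The 45S precursor is transcribed by RNA polymerase I in the nucleolus from tandemly repeated genes and is cut into the 18S rRNA of the small ribosomal subunit and the 5.8S and 28S rRNAs of the large subunit. Its external and internal transcribed spacers (5′ ETS, ITS1, ITS2 and 3′ ETS) are removed during maturation, so that cytoplasmic ribosomes carry the mature rRNAs without spacers. In the ribosome the 18S rRNA holds the decoding site, where codons are read, and the 28S rRNA holds the peptidyl transferase center, where peptide bonds form. rRNA is the most abundant RNA of a growing cell.

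The window holds 3 complete units, named by RefSeq as RNA45SN1 (chr21:8433222-8446572), RNA45SN2 (chr21:8205988-8219302) and RNA45SN3 (chr21:8389035-8402343). A partial copy (chr21:8250197-8260971), found by its sequence, stops at an assembly gap within 28S. The mature rRNAs differ little between copies. The 18S rRNA of RNA45SN2 and of RNA45SN3 each has 1 substitution against RNA45SN1, and 28S is 99.6% and 99.3% identical to that of RNA45SN1, counting gaps. A read that matches several copies was placed at 1 of them at random by the alignment, so clusters at the same base of different copies draw on a shared pool of reads and are not replicates of each other. For this reason the clusters were joined across copies by their position in the rRNA, counted from 1 at the 5′ end of the rRNA in RNA45SN1. This gave 22 positions, named below by their rRNA and by the first and last base that any cluster covers.

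The positions named by rule are shown first, with the sequence on the RNA strand in RNA45SN1 (hg38, plus strand), because the results below turn on them. Capitals mark the bases that every cluster at the position shares, over both replicates and all copies. The T read as C is among the T bases of a cluster, and its place is not given in the tables. Where a position is longer than 30 bases, a stretch of 30 bases is shown. The 5 positions in 18S are followed by the 5 positions of highest depth-scaled coverage in 28S.
18S 146–178, chr21:8437021-8437050: gataacTGTGgtaattctagagctaataca
18S 577–613, chr21:8437452-8437481: tCCTTTAACGaggatccattggagggcaag
18S 669–690, chr21:8437544-8437565: aaaagctcgtAGTTGGATCTtg
18S 1152–1181, chr21:8438027-8438056: tctttgggttccggggggagTATGGTTgca
18S 1827–1846, chr21:8438702-8438721: tcgtaacaagGTTTCcgtag
28S 1554–1586, chr21:8442702-8442731: cagaggaaactctGGTGGAGGTCCGTagcg
28S 2022–2038, chr21:8443167-8443183: ccgaATCAACTAGCCCT
28S 3722–3756, chr21:8444867-8444896: gaaattcaaTgaagcgcgggtaaacggcgg
28S 4494–4509, chr21:8445639-8445654: ttgttcACCCACTaat
28S 4544–4569, chr21:8445689-8445714: caggtTAGTTTTACCCTACTGATGAT

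Clusters lay almost wholly in the 18S and 28S rRNAs. In Rep.A, 20 clusters were in 18S, 36 in 28S, 1 in ITS1 and 1 in ITS2. In Rep.B, 20 clusters were in 18S, 30 in 28S and 1 in ITS1. Neither replicate had a cluster in the 5.8S rRNA (RNA5-8SN1, RNA5-8SN2 and RNA5-8SN3, 157 bases each), in the 5′ ETS or in the 3′ ETS. The 5.8S rRNA has the same bases in every copy and makes up 2.21% of the mature rRNA length, so its lack of clusters says little. A stretch without a cluster is one where no high-confidence T-to-C transition was called, and weaker binding there could not be seen, as the tables give coverage for clusters alone. By gene, RNA18SN1, RNA18SN2 and RNA18SN3 held 5 clusters each in each replicate. RNA28SN1 held 10 clusters in Rep.A (Rep.B, 8), RNA28SN2 held 11 (Rep.B, 8), and RNA28SN3 held 9 (Rep.B, 10). The partial copy held 5 clusters in 18S in each replicate and 6 and 4 clusters in its part of 28S.

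**Figure D1:**
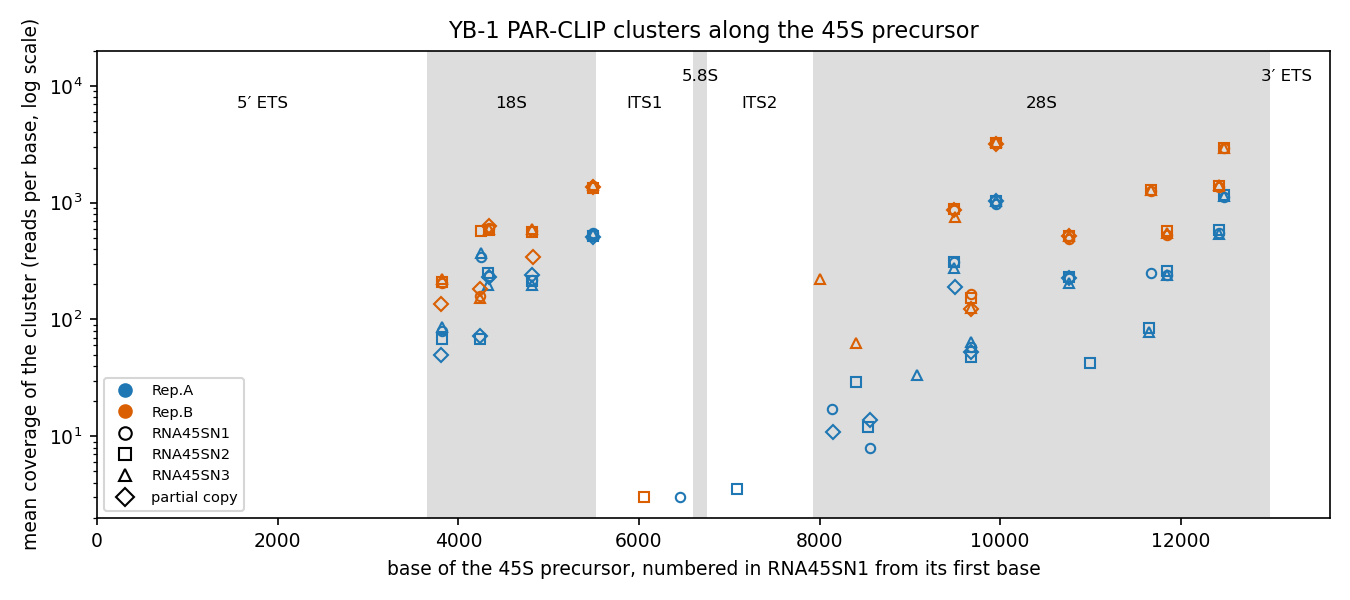
Each point is 1 cluster, at the middle of its span along the 45S precursor (x axis, bases from the first base of RNA45SN1; mature rRNAs shaded) and at its mean coverage (y axis, reads per base, log scale), with colors for the replicates and symbols for the copies. Points gather at the same places in 18S and 28S in both replicates, 5.8S and both external spacers are empty, and the 3 clusters in ITS1 and ITS2 lie at 3 to 3.53 reads.

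Most of the positions were found in both replicates. Of the 22 positions, 14 had a cluster in both replicates, 5 of 5 in 18S and 9 of 14 in 28S, which is 2.68 positions per 1000 bases of 18S and 1.78 per 1000 bases of 28S. In 13 of these the clusters of both replicates overlapped in the same copy. Each of the 13 had a cluster in every copy that holds the stretch, in both replicates, which is 4 copies for the 9 positions within the partial copy and 3 copies for the 4 positions past its end. Counted by cluster, 48 of 58 Rep.A clusters (82.8%, 95% Wilson interval 71.1 to 90.4%) overlapped a Rep.B cluster by at least 1 base, beside 80.5% of all Rep.A clusters, so this share was near that of the whole table. In Rep.B, 48 of 51 clusters (94.1%, 84.1 to 98.0%) overlapped a Rep.A cluster, beside 55.5% of all Rep.B clusters. The median coverage in Rep.B was 586 reads in the units and 24 outside them, and its part in these shares was not tested. The Wilson intervals cover counting error only, since PCR duplicates cannot be told from independent molecules and copies share reads.

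The 45S units held a far larger part of the coverage than of the clusters. They made up 4.20% of the clusters of Rep.A and 28.7% of its covered bases, the sum of mean coverage times width. For Rep.B these were 2.54% and 27.5%. Their median mean coverage was 226 reads per base in Rep.A (lowest 3, highest 1158) and 586 in Rep.B (lowest 3, highest 3317), beside 12 and 24 reads for the clusters outside the units. Of the 20 clusters with the highest mean coverage, 8 lay in the units in each replicate, and of the highest 100, 40 of Rep.A and 39 of Rep.B did. Within the units, 18S held 32.5% of the covered bases of Rep.A and 28S held 67.5%. For Rep.B these shares were 20.9% and 79.1%. By length, 18S is 26.4% and 28S is 71.4% of the 3 mature rRNAs of RNA45SN1. Within the units, the share of 18S thus lay above its share of length in Rep.A and below it in Rep.B. This comparison is rough, since the partial copy holds 2863 bases of 28S against 5066 in RNA45SN1. It also leaves out clusters of rRNA sequence at other loci, which held 9.25% of all covered bases in Rep.A and 6.78% in Rep.B.

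28S 2022–2038 had the highest coverage in Rep.B, and also in both replicates once coverage was summed over its 4 copies, while 28S 4544–4569 was higher per copy in Rep.A. In Rep.A the mean coverage of 28S 2022–2038 was 980.0 reads in RNA45SN1, 1037 in RNA45SN2, 1042 in RNA45SN3 and 1024 in the partial copy. In Rep.B it was 3242, 3266, 3317 and 3210 reads in the same order. The copies, which share reads, lay close together within each replicate. The log2 ratio of Rep.B to Rep.A was 1.67, beside 1.40 for the mapped reads. The clusters were 13 to 17 bases wide, ended at base 2038 in all 8 cases, and shared 13 bases with 3 T. Each had 1 transition, which gives a crosslinking efficiency, the fraction of T bases with a transition, of 0.33.

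28S 4544–4569 ranked second in 28S by the sum over the copies in the units, of which it has 3, and was first per copy in Rep.A. Its coverage in Rep.A was 1127 reads in RNA45SN1, 1158 in RNA45SN2 and 1134 in RNA45SN3, and in Rep.B it was 2937, 2936 and 2921. These values differed between copies by less than those of any other position in Rep.B, with an SD over copies of 8.78 reads on a mean of 2931. All 6 clusters ended at base 4569, and the 21 bases that they share hold 9 T. Each cluster had 1 transition, whose place among its 9 or 10 T is not known. 28S 4494–4509 lies just upstream. Its coverage was 548, 581 and 537 reads in RNA45SN1, RNA45SN2 and RNA45SN3 in Rep.A, and 1351, 1387 and 1408 in Rep.B. In Rep.A its clusters were 10 bases wide and began at base 4498 or 4500, and in Rep.B they were 12 or 13 bases wide and ended at base 4506. The 7 bases common to all 6 clusters hold a single T, base 4506 of 28S.

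Both of these positions lie by sites of known function, which were looked up after the positions were known. The peptidyl transferase strand (gggtttaga, found at bases 4524 to 4532) is a part of the ring at which peptide bonds form, and the sarcin-ricin loop (agtacgagagga, bases 4596 to 4607) is the stretch to which the translational GTPases bind and which the toxin ricin attacks. 28S 4494–4509 takes in the A loop (tgttc, bases 4495 to 4499), which pairs with the end of the tRNA in the A site. The clusters of Rep.B cover that loop, while in Rep.A the cluster of RNA45SN1 begins within it, at base 4498, and the others begin after it, and base 4506, the shared T, lies outside it. The position stops 14 bases before the peptidyl transferase strand. 28S 4544–4569 begins 11 bases after that strand and ends 26 bases before the sarcin-ricin loop. No cluster of either replicate in the units covered the peptidyl transferase strand or the sarcin-ricin loop itself. These distances describe the sequence only, and neighbors in sequence need not be neighbors in the folded ribosome.

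28S 1554–1586 stood apart in its transitions. It was the only position whose clusters held 2 transitions, and all 8 of them did, while each of the other 101 clusters of the units held 1. Its coverage in Rep.A was 311 reads in RNA45SN1, 310.0 in RNA45SN2, 274 in RNA45SN3 and 191 in the partial copy, where the cluster spans bases 1570 to 1586 and not 1554 to 1582. In Rep.B it was 864, 887, 756 and 869 reads. The log2 ratio of Rep.B to Rep.A was 1.64, beside 1.40 for the mapped reads. The 13 bases shared by all clusters hold 3 T, and the crosslinking efficiency was 0.4 in the clusters that hold 5 T and 0.67 in the narrower cluster that holds 3.

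28S 3722–3756 had the widest gap between replicates on the side of Rep.B. Its coverage was 250 reads in RNA45SN1, 84.5 in RNA45SN2 and 78.2 in RNA45SN3 in Rep.A, and 1261, 1283 and 1276 in Rep.B, a log2 ratio of the means of 3.21. The extent of the clusters differed with it. In RNA45SN1 of Rep.A and in all 3 copies of Rep.B the cluster spanned bases 3731 to 3756, whereas in RNA45SN2 and RNA45SN3 of Rep.A it was 10 bases wide and lay at 3722 to 3731 and 3724 to 3733. Between the clusters of the same extent, in RNA45SN1, Rep.B had 5.05 times the coverage of Rep.A, beside 2.63 times the mapped reads, and this was the highest ratio among clusters with the same ends. Base 3731, a T, was the only base common to all 6 clusters. The 3′ end of this position reaches into the loop of helix 69 (gtaactatg, bases 3754 to 3762), a hairpin of the large subunit that touches the decoding site across the subunit interface. Clusters at other loci overlapped this position in sequence, 2 in Rep.A (265 and 337 reads) and 2 in Rep.B (74.0 and 758 reads). The ratios above leave them out, and their part in the gap was not tested.

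The other positions of 28S found in both replicates were lower in the units, by depth-scaled coverage summed over copies. 28S 2834–2852 ran from 204 to 230.3 reads over 4 copies in Rep.A and from 493 to 523 in Rep.B. 28S 3922–3932 ran from 239 to 259 reads over 3 copies in Rep.A and from 530.4 to 567 in Rep.B, and its clusters covered bases 3922 to 3931 in every copy of Rep.A and 3923 to 3932 in every copy of Rep.B. Its sequence also had clusters at other loci, 3 in Rep.A (306.5 to 444 reads) and 4 in Rep.B (41.8 to 1134 reads). The units thus held only a part of the coverage of this sequence, and its place among the positions holds for the units alone. 28S 1749–1761, with 48.0 to 64.0 reads in Rep.A against 123 to 164 in Rep.B, was the lowest of the 13. The log2 ratios of Rep.B to Rep.A at these 3 positions were 1.21, 1.16 and 1.34 in the order given, beside 1.40 for the mapped reads.

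In 18S the highest position began just after the adenosines of the decoding site in sequence. 18S 1827–1846 had 545 reads in RNA45SN1, 521 in RNA45SN2, 538 in RNA45SN3 and 512 in the partial copy in Rep.A, and 1381, 1342, 1426 and 1356 in Rep.B. Its log2 ratio of 1.38 was close to that of the mapped reads. The clusters of the complete units had the same ends in both replicates. They began at base 1827, with 1 base between them and the decoding-site adenosines (bases 1824 and 1825), which monitor the pairing of codon and anticodon. The 5 bases shared by all 8 clusters, 1837 to 1841, hold 3 T. No cluster of the units covered the adenosines, and neighbors in sequence need not be neighbors in the folded ribosome.

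18S 669–690 and 18S 1152–1181 followed. 18S 669–690 had 198 to 249 reads over the 4 copies in Rep.A against 586 to 637 in Rep.B, where all 4 clusters covered the same 12 bases, 679 to 690. 18S 1152–1181 had 219, 213 and 198 reads in RNA45SN1, RNA45SN2 and RNA45SN3 in Rep.A and 575, 559 and 594 in Rep.B. The partial copy had 239 and 342 reads there, and its cluster in Rep.B was 10 bases wide in place of 27. 18S 146–178 was the lowest position of 18S. It had 79.6, 68.4 and 85.7 reads in the complete units in Rep.A and 207, 209.7 and 220.0 in Rep.B, with 49.6 and 135 reads in the partial copy, where the cluster covered bases 146 to 155 and not 152 to 178.

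18S 577–613 had the lowest ratio of Rep.B to Rep.A, far below that of the mapped reads, and the largest spread between copies relative to its mean. In Rep.A its coverage was 342 reads in RNA45SN1, 67.5 in RNA45SN2, 370 in RNA45SN3 and 71.8 in the partial copy. In Rep.B it was 160 reads in RNA45SN1, 577 in RNA45SN2, 152 in RNA45SN3 and 181 in the partial copy. The log2 ratio of the means was 0.33, beside 1.40 for the mapped reads. Here too the coverage went with the extent: the clusters with 342, 370 and 577 reads were 37, 37 and 30 bases wide, and the 5 others were 10 bases wide. Between the clusters with the same ends, in the partial copy, the log2 ratio was 1.33. The position ends 6 bases before the 530 loop (gccgcggta, bases 620 to 628), a conserved part of the small subunit that takes part in decoding.

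**Figure D2:**
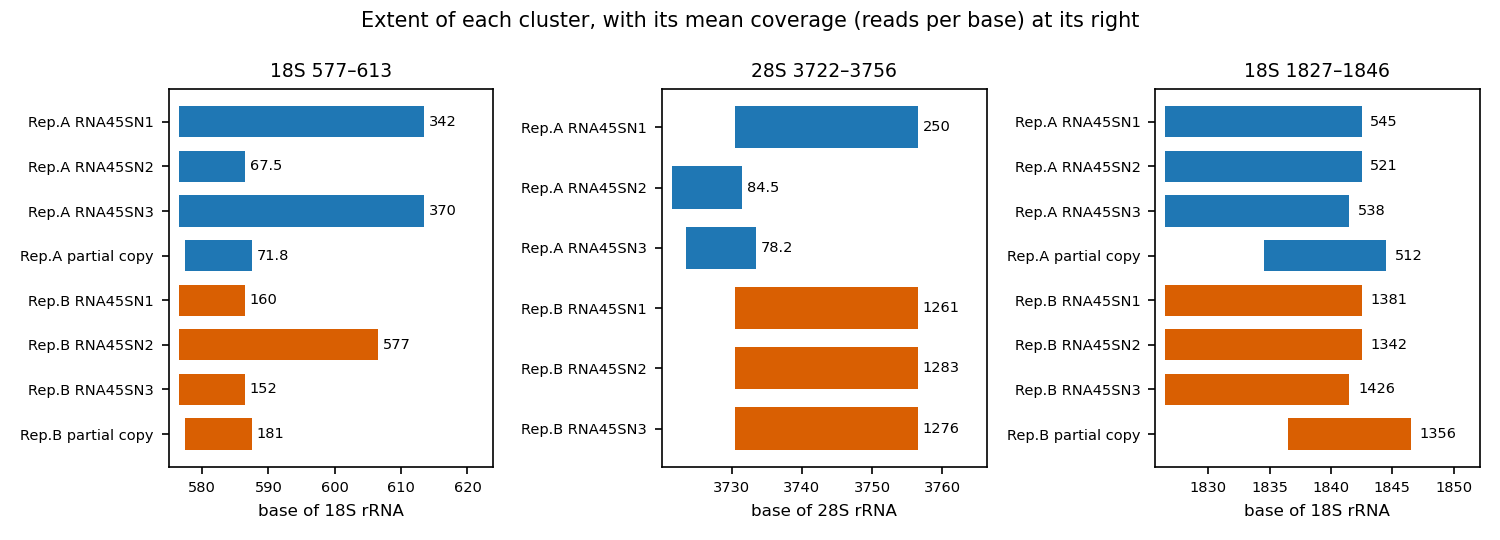
Bars span the first to the last base of each cluster in its rRNA (x axis, base of 18S or 28S), one bar for each copy and replicate, with the mean coverage in reads per base at the right of the bar. At 18S 577–613 and 28S 3722–3756 the wide clusters carry several times the coverage of the clusters of 10 bases at the same position, while at 18S 1827–1846 clusters of 10 to 16 bases carry similar coverage within a replicate.

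Coverage was close between the copies of a replicate where their clusters had the same ends. The copies hold the same bases there and share reads placed at random, so this closeness is not independent agreement. There were 25 sets of copies at the same position of the same replicate with the same first and last base, 13 from Rep.A and 12 from Rep.B. The coefficient of variation of the mean coverage over the copies of a set had a median of 5.57% in Rep.A (1.49 to 10.6%), while in Rep.B it was 2.55% (0.350 to 16.9%). The highest value, 16.9%, was that of 28S 1749–1761 in Rep.B. Copy by copy, the median log2 ratio of Rep.B to Rep.A over the 13 positions was 1.38 in RNA45SN1, 1.39 in RNA45SN2 and 1.39 in RNA45SN3, and it was 1.41 over the 9 positions of the partial copy. These medians lay close together, and since reads with several matches were placed at random, the values cannot tell which copy was transcribed.

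**Figure D3:**
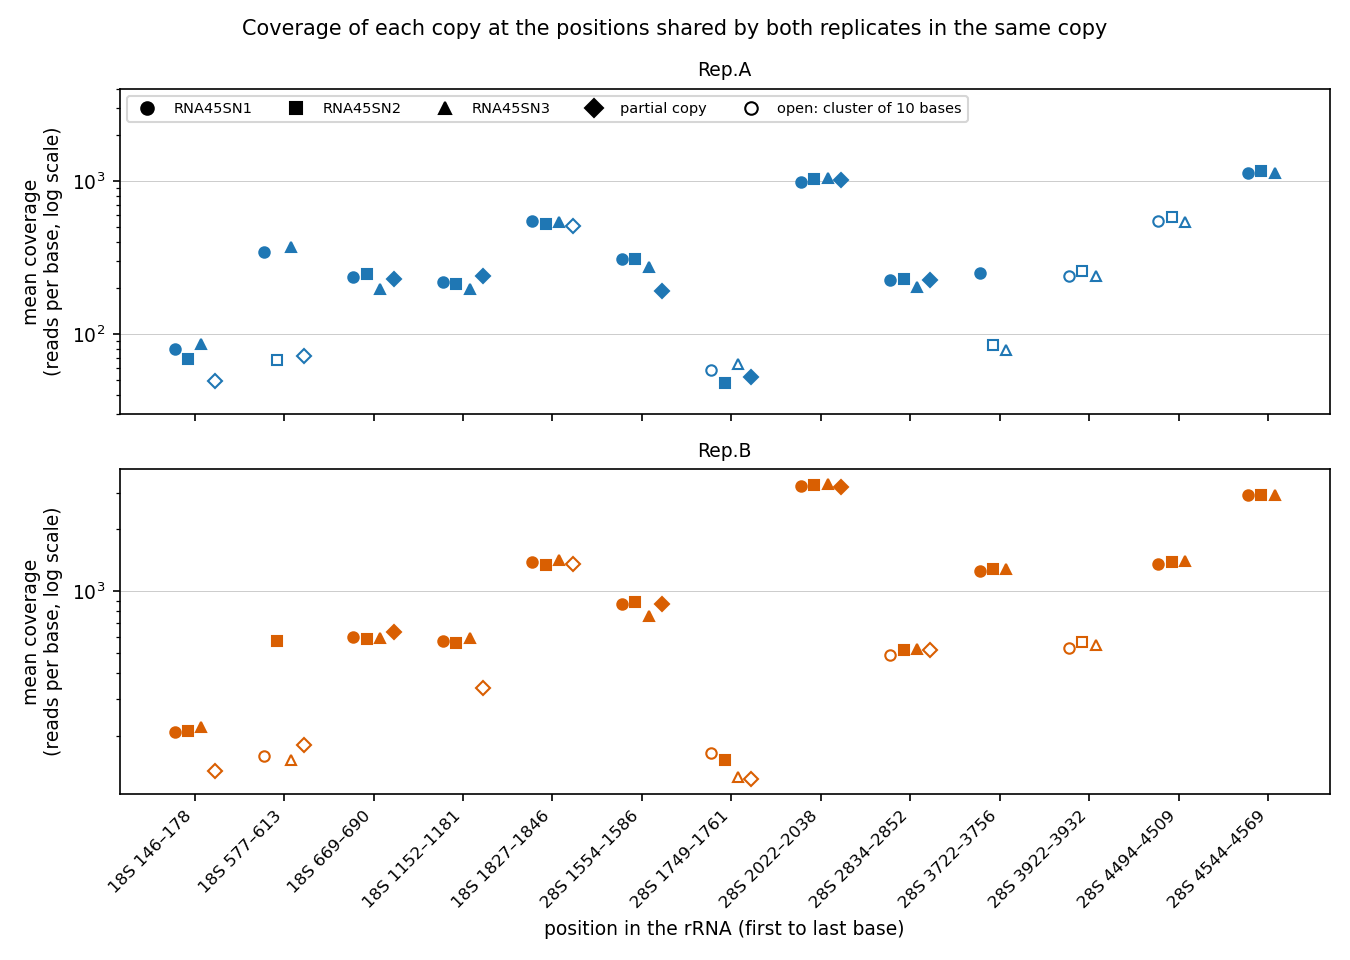
Each point is the mean coverage (y axis, reads per base, log scale) of 1 cluster at 1 of the 13 positions that overlap in the same copy in both replicates (x axis), with symbols for the copies, Rep.A above and Rep.B below, and open symbols for clusters of 10 bases. Copies lie close together at most positions, and at 18S 577–613 in both replicates and 28S 3722–3756 in Rep.A the open symbols lie far below the filled ones.

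Over all 14 positions with a cluster in both replicates the log2 ratio of Rep.B to Rep.A had a median of 1.35, from 0.33 to 3.21, beside 1.40 for the mapped reads. Restricted to the 13 clusters, at 7 positions, that have the same ends in both replicates, the median was 1.38, and the ratio itself ran from 1.96 to 5.05. The log2 coverage of Rep.A and Rep.B had Pearson's r = 0.929 and Spearman's rho = 0.895 over the 14 positions, given as a description, since positions in the same rRNA share their library and are not independent. The order of the positions was thus similar in both replicates, with 28S 2022–2038 and 28S 4544–4569 at the top of each.

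**Figure D4:**
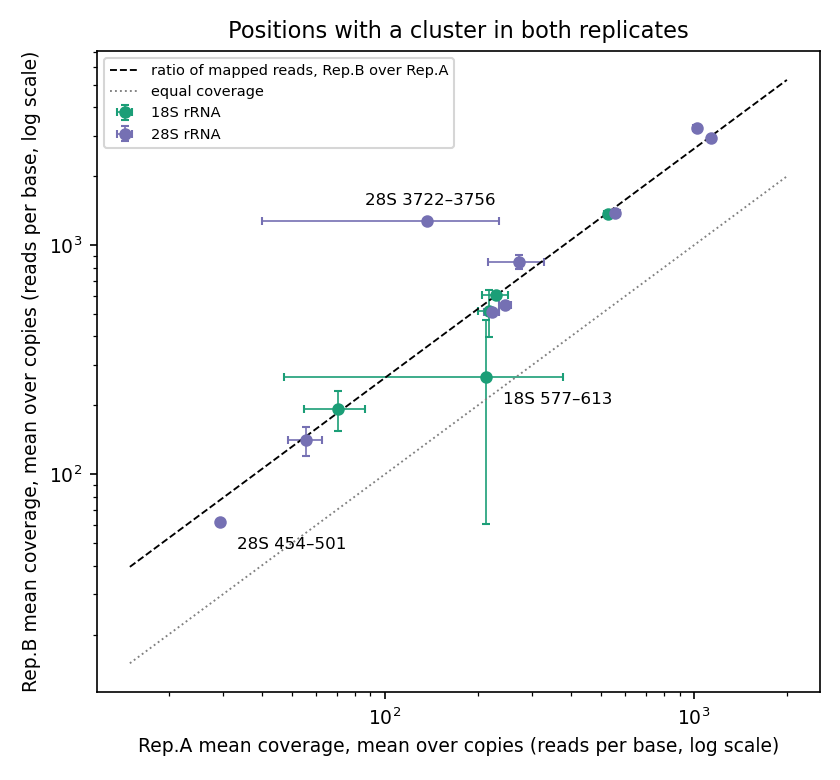
Each point is a position with a cluster in both replicates, at its mean coverage over copies in Rep.A (x axis) and Rep.B (y axis), both in reads per base on log scales, and error bars are the SD over copies, drawn where there is more than 1 copy. Most of the 14 points lie by the dashed line of the mapped-read ratio of 2.63, with 28S 3722–3756 above it and 18S 577–613 below it.

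The remaining 9 positions, with 13 clusters, were mostly weaker, and 8 of them had a cluster of the units in 1 replicate only. Their clusters had a median mean coverage of 12.8 reads in Rep.A (3 to 42.1, 10 clusters) and 62.3 in Rep.B (3 to 220.2, 3 clusters), beside 239 (48.0 to 1158) and 595 (123 to 3317) for the clusters of the 13 positions. The relative log odds, the score of the calling model per T base, had a median of 0.0630 in the 13 clusters and was negative in 4, beside 0.264 and none negative in the 96 others. Their base composition differed as well. G and C made up 60 to 89.7% of the bases of the 9 positions (median 78.1%) and 36.4 to 61.5% of the bases of the 13 positions (median 51.4%), beside 56.1% of 18S and 69.4% of 28S. All 9 lay in 28S or the internal spacers, and none in 18S.

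Of these 9 positions, 3 lay in spacers, and they had the lowest coverage in the units. ITS1 514–548 was found in Rep.B alone, in RNA45SN2, with 3 reads. ITS1 926–942 was found in Rep.A alone, in RNA45SN1, with 3 reads, which is the lowest coverage at which the calling accepts a substitution. ITS2 310–341 was found in Rep.A alone, in RNA45SN2, with 3.53 reads and a relative log odds below 0. The spacer clusters held 51, 105 and 113 covered bases, against 15548 to 223840 in the 18S or 28S of a copy in 1 replicate. Their sequences stand in capitals throughout, as each position has a single cluster.
ITS1 514–548, chr21:8439260-8439289: AGGGTCGGGGGCCGGACGCCGGTCCCCTCC
ITS1 926–942, chr21:8439670-8439686: CCTCTCCGGAGTCCGGT
ITS2 310–341, chr21:8440288-8440317: GCGGTCCGGGTTCCTCCCTCGGGGGGCTCC

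The other 6 lay in 28S. 28S 583–650 held the only cluster of the units wider than 60 bases, 64 bases in RNA45SN2 of Rep.A with 11.9 reads, and had narrower clusters in RNA45SN1 (7.91 reads) and the partial copy (13.7 reads), all in Rep.A. It is shown because of that width, with capitals for the 19 shared bases.
28S 583–650, chr21:8441766-8441795: gcggggcCGGGGGTGGGGTCGGCGGGggac
28S 454–501 was found in both replicates but in different copies, with 29.4 reads in RNA45SN2 of Rep.A and 62.3 in RNA45SN3 of Rep.B. 28S 74–83 had the highest coverage of the 9, with 220.2 reads in RNA45SN3 of Rep.B and no cluster in Rep.A. 28S 209–238, 28S 1136–1178 and 28S 3056–3090 were found in Rep.A alone, with 10.9 to 42.1 reads.

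The clusters of the units differed from the clusters outside them in form. They had a median width of 16 bases in both replicates, beside 22 bases outside the units. Clusters of 10 bases, the narrowest that the calling keeps, were 14 of 58 in Rep.A, 15 of 51 in Rep.B, beside 14 of 1324 and 21 of 1960. The last base was G, after which RNase T1 cleaves, in 20 of 58 clusters of the units in Rep.A (34.5%, 23.6 to 47.3%), against 85.3% (83.3 to 87.1%) of those outside. For Rep.B it was G in 17 of 51 (33.3%, 22 to 47%), against 78.8% (77 to 80.6%), all with 95% Wilson intervals. The intervals of the units are too narrow, since they count copies of a position as if independent. By position, all clusters ended in G at 2 of the 22, some did at 9 and none did at 11. Most clusters of the units thus ended in a base other than G. The difference was also present among clusters of at least 15 bases, of which 8 of 35 ended in G in Rep.A and 5 of 27 did in Rep.B, beside 1113 of 1293 and 1523 of 1908. Among the 7 and 11 clusters of the mitochondrial rRNAs MT-RNR1 and MT-RNR2, 4 and 6 ended in G. Width and coverage differed along with this share, and their part in it was not tested.

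The tetramers CATC and CACC, counted on the RNA strand, were nearly absent from the units. CATC was in no cluster of either replicate, beside 37.8% (Rep.A) and 33.7% (Rep.B) of the clusters outside the units. As copies repeat the same sequence, the positions are the better unit, and 0 of 22 allows a share of up to 13.6%. CACC was in 1 cluster of Rep.A and 3 of Rep.B, all at 28S 4494–4509, beside 37.2% and 34.7% outside. Both tetramers are rare in the mature rRNAs themselves. CATC occurs 1 time in 18S and 6 times in 28S of RNA45SN1, and of all windows of 16 bases that hold a T it is in 0.736% in 18S and 1.78% in 28S. CACC occurs 6 and 18 times, in 3.06% and 3.53% of such windows. The units therefore offer few windows with either tetramer, and the lack of CATC was near the share of windows that hold it.

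The crosslink values of the units were the following. A single transition was called in 54 of 58 clusters in Rep.A (93.1%) and 47 of 51 in Rep.B (92.2%), beside 85.9% and 85.4% outside the units. The median number of T bases was 4 in both replicates, beside 5, and the median crosslinking efficiency was 0.25 and 0.33, beside 0.2 in both. The median relative log odds was 0.175 for Rep.A and 0.297 for Rep.B, beside 0.149 and 0.190 outside.

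rRNA sequence also appeared in clusters at other places of the genome, where the assembly holds fragments and pseudogenes of rRNA. Clusters outside the units whose whole sequence of at least 15 bases occurs in a 45S unit were 22 in Rep.A, with 9.25% of all covered bases, and 28 in Rep.B, with 6.78%. Of these, 17 and 22 lay at the positions described above, and they touched 10 of the 22 positions. The sequence of 28S 4544–4569 had a cluster on chromosome 4 with 722 reads (Rep.B, 1681), and that of 18S 146–178 had 2 such clusters in Rep.A (6.52 and 239 reads) and 5 in Rep.B (10.6 to 580.2 reads). Searched in hg38, the whole sequence of 11 positions of at least 15 bases had 3 or 4 exact copies in the units, 0 to 4 elsewhere on the reference chromosomes and 2 to 5 on sequences not placed in the reference chromosomes. The study kept only reads on the reference chromosomes, so the coverage given here is that part of the reads of a position which fell on the copies in the window.

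Among the other rRNAs, the mitochondrial ones held clusters in both replicates. MT-RNR1, the small mitochondrial rRNA (954 bases), had 2 clusters in each replicate with at most 141 reads in Rep.A (Rep.B, 365). MT-RNR2, the large mitochondrial rRNA (1559 bases), had 5 and 9 clusters with at most 690 and 1457 reads, so the highest values there were of the order of those at 28S 4494–4509. Of 17 genes of 5S rRNA, the rRNA of the large subunit that is transcribed by RNA polymerase III, 1 held a cluster in Rep.A (70.3 reads) and 4 in Rep.B (at most 10.9 reads). The small nucleolar RNA U3, which is needed for the first cuts of the precursor, had 1 cluster in each replicate (3.95 and 75.9 reads) in 1 of its 5 genes. RMRP, U8 (SNORD118), SNORD13 and RPPH1 held none in either replicate, and RN7SL1 and RN7SL2, the RNA of the signal recognition particle, held at most 22.4 reads.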

How the data were processed

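PAR-CLIP libraries of 2 replicates of wild-type HEK293T cells were used, as tables of clusters. The authors used cutadapt 2.10 for trimming and Bowtie 1.0.0 for alignment to hg38, where a read with several matches takes 1 random position. They kept the reference chromosomes and ran wavClusteR on each replicate without pooling. Mean coverage, as deposited, is a signal (reads per base) without scaling by depth. The deposited counts are whole numbers of T-to-C transitions and of T bases. The deposited crosslinking efficiency is a fraction, transitions over T bases. The deposited log odds are a score whose log base is not given in the sources used here. The study states deduplication for its sequencing libraries in general, while its separate PAR-CLIP steps do not name it.

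Every one of the 109 clusters had the sequence of hg38 at its place. Copies were aligned with mafft 7.526, and clusters that share at least 1 base after projection on RNA45SN1 were joined. Joining was tested on simulated sites planted apart from each other, so the test did not cover chains of clusters that share few bases. Gene spans came from RefSeq and GENCODE. Depth was the mapped reads that the study lists, used as a ratio. With 1 condition and 2 libraries no test was made, and shares have 95% Wilson intervals. Named positions were those in both replicates with the 5 highest depth-scaled coverages in 18S and in 28S, all positions in spacers, clusters wider than 60 bases and the widest disagreements between replicates. The members, lists and tetramers were chosen with earlier results of these data known. Alternatives were width, score and coverage limits, 50% overlap, exact ends, depth scaling, whole-genome matches and each replicate alone. Tools were pandas 2.3.3, numpy 2.4.6, matplotlib 3.10.9 and scipy 1.17.1 under Python 3.11.15.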

Additional observations from a re-analysis of the deposited data

How the results depend on the processing

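Of 40 values recomputed under alternatives, 29 stayed near the main value (counts within 1.5 times, other values within the spread of the replicates or the interval), 10 moved and 1 changed sign. The clusters numbered 109, 74 with at least the median relative log odds, 159 with rRNA sequence anywhere in the genome and 51 to 58 with 1 replicate left out. The positions in both replicates numbered 14, 12 with the higher log odds and 11 with exact ends. With rRNA sequence counted anywhere in the genome, the share of covered bases rose from 28.1% (the mean of both replicates) to 36.1%, and it was 33.0% with clusters of at least the median relative log odds and 29.3% with at least 10 reads, and 27.5 to 28.7% with 1 replicate left out. With an overlap of at least 50% of both clusters, 75.2% of the clusters, in place of 88.1%, overlapped the other replicate. Counting clusters in place of covered bases put 18S at 36.8% in place of 26.7% and 28S at 60.4% in place of 73.3%, while leaving out 1 replicate gave 20.9 to 32.5% and 67.5 to 79.1%. The median log2 ratio of Rep.B to Rep.A, 1.35, was 1.36 with the higher log odds, 1.38 with clusters of the same ends (chosen after the data were seen, like the overlap in the same copy, which gave 13 positions in place of 14) and -0.044 once coverage was divided by mapped reads. No paired analysis was possible because there was 1 group of samples.

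The mean coverage of a cluster depends on the extent given by the calling, which differed between copies and replicates, and the tables do not show coverage outside clusters. Without a control library, the recovery of abundant rRNA in the absence of YB-1 was not tested.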

Other observations

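Some rRNA sequence was found at other loci of the genome and at none of the positions in the units. There were 5 such stretches, 4 of them in both replicates. The strongest was 28S 4371–4393, on chromosome 1, with 1022 reads per base in Rep.A (23 bases wide) and 2632 in Rep.B (21 bases wide), which is of the order of the highest positions of the units, although the units hold the same bases and had no cluster there. 18S 1044–1067 had 1 cluster in Rep.A (11.5 reads) and 2 in Rep.B (at most 44.6 reads). 18S 1489–1537 had 2 clusters in Rep.A (at most 82.4 reads) and 1 in Rep.B (39.0 reads). 28S 2659–2692 had 15.2 reads in Rep.A against 70.7 in Rep.B. 28S 2355–2372 was found in Rep.B alone, with 178 reads. Whether reads of these stretches also lay in the units without a called transition was not tested, since the tables hold no coverage outside clusters.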
